A study of Mus musculus with 9 samples.

Results

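The semaphorins, plexins and neuropilins are a family of guidance ligands and their receptors, and they were followed here in mouse embryonic fibroblasts whose Hedgehog pathway was switched on. Members were all genes whose symbol names a vertebrate semaphorin of classes 3 to 7 (Sema3a to Sema7a), a plexin (Plxna1 to Plxnd1) or a neuropilin (Nrp1, Nrp2). The rule found 31 of the 30407 genes whose identifiers both experiments share, namely 20 semaphorins, 9 plexins and 2 neuropilins. It used symbols and no measured value. Between 19 and 22 of the 31 members passed the filter on low counts of a comparison, and the rest are given by their counts.

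The cells were of NIH3T3-CG, a mouse embryonic fibroblast line, and their RNA was counted in 9 libraries of single cells with a kit that tags the 3' end of transcripts. SAG, a small molecule that activates Smoothened, was given for 0, 17 or 30 h in Experiment 1 and for 0, 19 or 30 h in Experiment 2. Experiment 2 had all 3 times without Dox and again with Dox, and the labels of Experiment 1 do not mention Dox, so that experiment was taken as without it. What Dox induces is not in the labels, nor which promoter drives it, or whether the line is a clone. Every condition without Dox thus had 2 libraries, 1 per experiment, and every condition with Dox had 1. The 3 series of libraries (Experiment 1, Experiment 2 without Dox, Experiment 2 with Dox) are called arms. The labels name no untreated library at the later times, so SAG time and time in culture cannot be told apart. The labels do not say that cultures were separate, so the spread behind each p-value is that of these libraries and could be technical.

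Class 3 semaphorins are secreted and bind neuropilins, which have short cytoplasmic tails and signal with plexins of class A. Other semaphorins are anchored in the membrane and bind plexins directly, and the cytoplasmic part of a plexin is a GTPase-activating domain that acts on small GTPases and so on adhesion and the cytoskeleton. Neuropilins are also co-receptors for vascular endothelial growth factors, and in fibroblasts they are known as positive regulators of Hedgehog signalling.

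Promoter sequences are shown for both neuropilins, whose levels moved in opposite directions between the experiments, and for Sema5a. The scaled level of Sema5a was lower in every SAG library than at 0 h of its arm, though not with scaling by library size alone. The sequences are from the RefSeq promoter table on GRCm38.p6, which holds 300 bases per start (250 before and 50 after), and only bases that no annotated exon covers are printed. Nrp2 lies on the plus strand at chr1:62703067-62703284, directly before the gene's first annotated exon, and capitals mark 4 GC boxes (GGGCGG on either strand, 2 of them overlapping by 1 base). Nrp1 lies on the plus strand at chr8:128358823-128359072, within an intron of a longer annotated transcript, and capitals mark 1 GC box. Sema5a lies on the plus strand at chr15:32244663-32244809, directly before the first annotated exon, and capitals mark the core of the GLI binding site, CCACCCA, on the opposite strand. The Sema5a sequence also holds GC boxes, which are left in lower case.
Nrp2: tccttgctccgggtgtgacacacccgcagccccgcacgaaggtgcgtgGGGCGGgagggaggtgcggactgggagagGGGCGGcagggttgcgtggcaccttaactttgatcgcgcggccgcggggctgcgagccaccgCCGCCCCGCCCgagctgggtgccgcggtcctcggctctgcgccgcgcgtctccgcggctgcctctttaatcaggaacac
Nrp1: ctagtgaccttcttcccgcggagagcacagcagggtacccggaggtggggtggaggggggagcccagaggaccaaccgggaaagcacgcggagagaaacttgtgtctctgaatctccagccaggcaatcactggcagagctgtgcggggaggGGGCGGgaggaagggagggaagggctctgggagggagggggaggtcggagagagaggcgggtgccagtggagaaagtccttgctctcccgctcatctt
Sema5a: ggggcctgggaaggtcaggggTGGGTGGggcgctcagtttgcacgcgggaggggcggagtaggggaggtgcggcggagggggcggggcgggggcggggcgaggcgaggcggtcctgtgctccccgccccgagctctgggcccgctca

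The table held 37 promoters of 26 members among 32851 promoters of all genes. The longer GLI consensus GACCACCCA, which contains the core, was in 0 of the 37 and in 0.253% of all promoters. The core CCACCCA was in 6 of the 37 (16.2%), those of Plxna2, Sema3c, Sema3g, Sema4a, Sema5a and Sema6c, and in 9.30% of all promoters. The GC box was in 27 of the 37 (73.0%) and in 35.7% of all promoters. A match of letters is a description of the window and not a binding site.

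Kept cells had at least 5000 UMIs (unique molecular identifiers, each counting 1 captured molecule) and at most 10% mitochondrial UMIs. They numbered 571 to 6520 per library and summed to 19422658 to 106128757 UMIs, with a median of 8025 UMIs per cell in Experiment 2 at 19 h without Dox and of 28335 to 48188 in the other libraries. Any 2 libraries shared at most 9 of these barcodes. Gli1, the classical Hedgehog target, was at 0.0509 to 0.206 CPM (counts of UMIs scaled to a common library size with TMM factors) in the 0 h libraries and at 3.98 to 25.8 CPM in the 6 SAG libraries, and Ptch1, the Hedgehog receptor, at 3.56 to 5.14 and at 9.86 to 98.4 CPM. The 9 fibroblast markers summed to 6446 to 12047 CPM, and all 8 endothelial markers were under 1 CPM in every library. Markers of smooth muscle or myofibroblasts summed to 125 to 171 CPM in Experiment 1 and to 298 to 496 CPM in Experiment 2. Cells with under 1% mitochondrial UMIs made up 17.9% to 19.7% of the 30 h libraries of Experiment 2 and of its 19 h library with Dox, and 0.429% to 1.41% of the others.

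The fibroblasts carried both neuropilins, plexins of classes A, B and D, and mainly 3 semaphorins. A mean of at least 10 CPM over the 9 libraries was reached by 8 members: Nrp1, Nrp2, Plxna1, Plxna2, Plxnb2, Sema3a, Sema3f and Sema5a. Another 8 lay between 1 and 10 CPM (Plxna3, Plxnd1, Sema3b, Sema4b, Sema4c, Sema4g, Sema6c, Sema7a), and 15 lay under 1 CPM. Since each 3' tagged molecule gives 1 UMI whatever its length, these levels are molecules captured, although genes may be captured unequally. The highest mean was that of Plxnb2, at 43.2 CPM, followed by Nrp1 at 28.7 CPM and Plxna2 at 25.6 CPM.

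**Figure D1:**
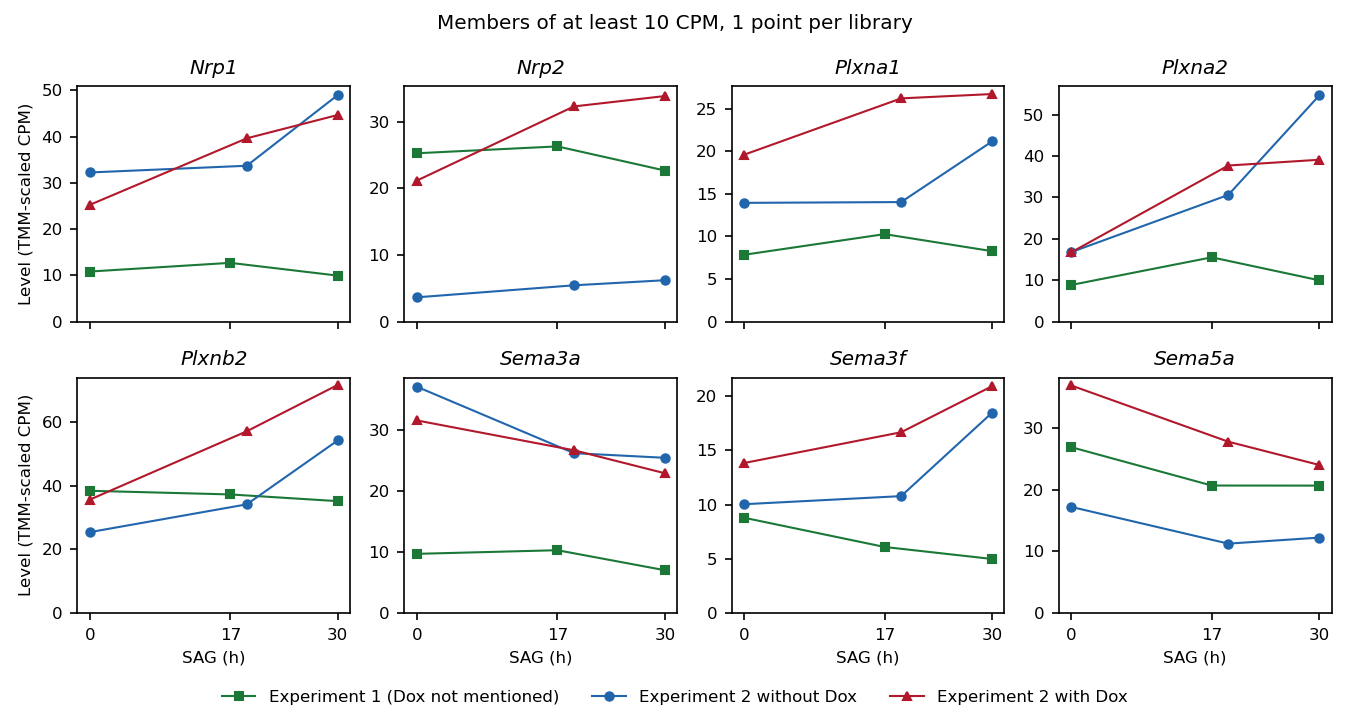
Level of the 8 members of at least 10 CPM, with SAG time in hours on the x axis and TMM-scaled CPM on the y axis, which starts at 0. Each point is 1 library and lines join the libraries of an arm, so there are no error bars. Nrp2 is lowest in Experiment 2 without Dox (3.63 to 6.20 CPM), and Nrp1 is lowest in Experiment 1 (9.93 to 12.7 CPM).

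Nrp2, Sema5a, Sema4c and other members were higher with Dox, Sema7a and Sema4b were lower, and between the experiments Nrp1 and Sema3a were higher in Experiment 2 and Nrp2, Sema7a and, at low levels, Sema3c and Plxna4 were lower. In Experiment 2, 12 of 19 members tested differed between libraries with and without Dox, 10 higher and 2 lower, where 38.4% of all genes were called (edgeR quasi-likelihood test, Benjamini-Hochberg adjusted p under 0.05, n = 3 libraries per side, 1 per SAG time). Between the experiments without Dox, 12 of 21 members differed, 5 higher and 7 lower in Experiment 2, where 40.5% of all genes were called. In both comparisons the 3 libraries of a side are of different SAG times and are not replicates. The p-values thus rest on how the differences varied between times. The median member stood at 0.41 on the log2 scale for Dox and at -0.02 for the experiment, against 0.01 and -0.01 for all genes tested. Both comparisons, and those of SAG, use the 3 libraries of Experiment 2 without Dox, so a level that was low there is higher with Dox and lower than in Experiment 1 at once. Experiments also differ in software version, and experiment, software and any other difference between them cannot be told apart. That Experiment 1 was without Dox is assumed, since its labels do not mention Dox. The sums of the smooth muscle or myofibroblast markers (125 to 171 CPM in Experiment 1, 370 to 486 CPM in Experiment 2 without Dox, 298 to 496 CPM with Dox) move with the experiment. So do those of the 6 neuron markers (6.29 to 6.60 CPM, 10.1 to 16.0 CPM and 15.7 to 21.2 CPM), which were also higher with Dox at each time, with Rbfox3 at 0 in every library and Stmn2 the highest, and those of the fibroblast markers (6446 to 7365, 9167 to 9844 and 11007 to 12047 CPM). The part of these markers in the calls was not tested. Scaled by library size alone, the median of all genes was 0.41 for Dox and -0.47 for the experiment. The calls over all genes then went from 2617 higher and 2616 lower to 6940 and 485 for Dox, and from 2677 and 2593 to 1206 and 4496 for the experiment. Among members they became 12 higher and 1 lower for Dox, and 3 higher and 8 lower for the experiment.

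**Figure D2:**
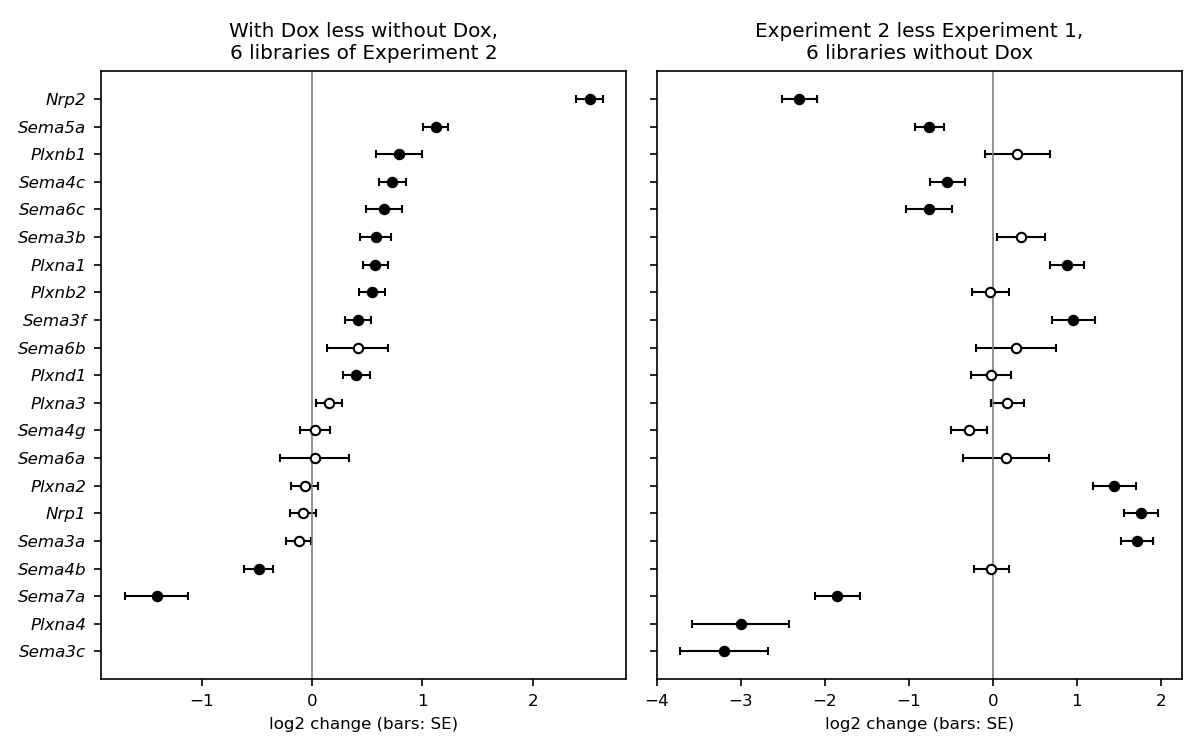
Log2 change of each member tested, on the left for libraries with Dox less those without (6 libraries of Experiment 2) and on the right for Experiment 2 less Experiment 1 (6 libraries without Dox). Points are edgeR estimates, bars are standard errors, and filled points have an adjusted p under 0.05. Nrp2 stands at 2.51 on the left and at -2.30 on the right, while Nrp1 stands at -0.08 and 1.77.

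Among the neuropilins, Nrp2 was the member that differed most with Dox. Nrp2 (ENSMUSG00000025969), the neuropilin with a preference for Sema3f, stood at 25.2, 26.3 and 22.7 CPM at 0, 17 and 30 h in Experiment 1. In Experiment 2 it stood at 3.63, 5.43 and 6.20 CPM without Dox and at 21.1, 32.3 and 33.8 CPM with Dox, at 0, 19 and 30 h. All 3 libraries of Experiment 2 without Dox lay below all 6 others, with no overlap. With Dox Nrp2 was higher by 2.51 on the log2 scale (SE 0.12, edgeR adjusted p = 3.76e-21), by 2.44 to 2.56 at each of the 3 times. In Experiment 2 it was lower than in Experiment 1, at -2.30 (SE 0.21, edgeR adjusted p = 1.99e-07). A level summed over a library does not separate the share of cells with a transcript from its amount per cell.

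Nrp1 (ENSMUSG00000025810), the neuropilin that binds Sema3a, did not follow Nrp2. Its levels were 10.8, 12.7 and 9.93 CPM in Experiment 1, 32.2, 33.7 and 49.0 CPM in Experiment 2 without Dox, and 25.2, 39.6 and 44.7 CPM with Dox. All 6 libraries of Experiment 2 lay above those of Experiment 1, and the libraries with and without Dox overlapped. The experiments differed by 1.77 (SE 0.20, edgeR adjusted p = 4e-06). With Dox the change was -0.08 (SE 0.12, edgeR adjusted p = 0.604).

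The make-up of the neuropilin pool can be read within each library without any scaling between libraries. Nrp2 gave 70.0%, 67.4% and 69.5% of the neuropilin UMIs at 0, 17 and 30 h in Experiment 1. In Experiment 2 it gave 10.1%, 13.9% and 11.2% without Dox and 45.6%, 44.9% and 43.1% with Dox. The 3 arms did not overlap, and their exact binomial (Clopper-Pearson) 95% intervals, which cover counting error only, had lowest bounds of 64.1% in Experiment 1 and 41.9% with Dox, above the highest bound of 15.1% in Experiment 2 without Dox. Within an arm the share stayed within a few percentage points over SAG time.

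**Figure D3:**
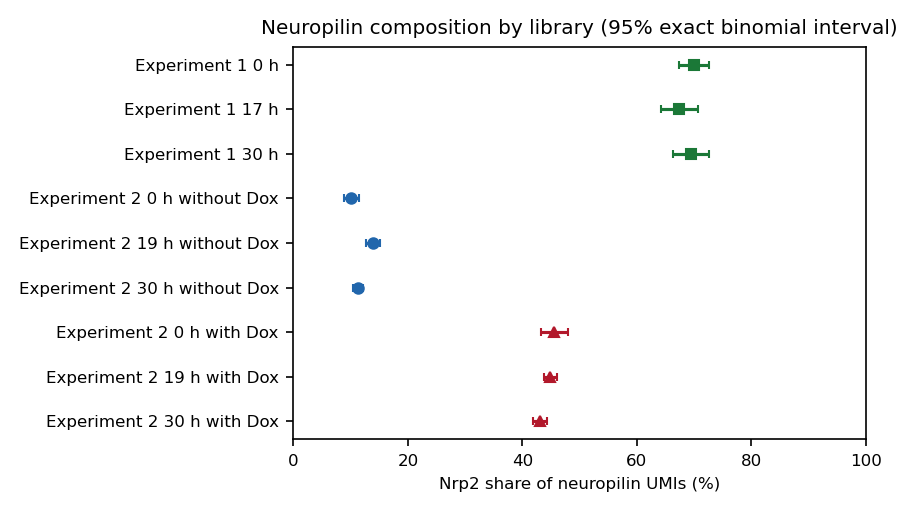
Share of neuropilin UMIs that came from Nrp2, in percent on the x axis, for each of the 9 libraries on the y axis. Points are shares and bars their exact binomial 95% intervals. The shares fall into 67.4% to 70.0% in Experiment 1, 10.1% to 13.9% in Experiment 2 without Dox and 43.1% to 45.6% with Dox.

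Of the plexins, the class A receptors that pair with neuropilins were led by Plxna2 in the mean over the 9 libraries, though not in each library. At 0 h with Dox Plxna1 was higher, at 19.6 CPM against 16.7 CPM. Plxna2 (ENSMUSG00000026640) stood at 8.85, 15.5 and 9.97 CPM in Experiment 1, at 16.8, 30.6 and 54.7 CPM in Experiment 2 without Dox and at 16.7, 37.7 and 39.1 CPM with Dox. It was higher in each SAG library than at 0 h of its arm, and the 0 h libraries with and without Dox lay within 1 CPM of each other. Between the experiments it differed by 1.45 (SE 0.25, edgeR adjusted p = 0.000243). With Dox the change was -0.07 (SE 0.12, edgeR adjusted p = 0.687). Its share of all plexin UMIs was 12.5%, 19.8% and 15.0% in Experiment 1. The arm of Experiment 2 without Dox had shares of 23.9%, 33.2% and 36.8%, and the arm with Dox 19.1%, 27.0% and 24.7%. In Experiment 2 that share was higher without Dox than with it at each time.

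Plxna1 (ENSMUSG00000030084), a class A plexin whose exons overlap Gm26811 on the other strand, stood at 7.85, 10.3 and 8.27 CPM in Experiment 1. The libraries of Experiment 2 were at 14.0, 14.0 and 21.2 CPM without Dox and at 19.6, 26.2 and 26.7 CPM with Dox. The experiments did not overlap, and each library with Dox was above that of the same time without it. It was higher with Dox by 0.57 (SE 0.12, edgeR adjusted p = 0.000125) and in Experiment 2 by 0.88 (SE 0.20, edgeR adjusted p = 0.00227), and the second call ended with scaling by library size alone, at 0.42. Plxna3, the class A plexin on the X chromosome, ranged from 7.15 to 10.9 CPM and was called in no comparison.

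Plxnb2 (ENSMUSG00000036606), a receptor for class 4 semaphorins, stood at 38.4, 37.2 and 35.1 CPM in Experiment 1. The libraries of Experiment 2 were at 25.4, 34.1 and 54.1 CPM without Dox and at 35.6, 57.0 and 71.5 CPM with Dox. Levels lay within a few CPM of each other in Experiment 1 and climbed in both arms of Experiment 2. With Dox it was higher by 0.54 (SE 0.12, edgeR adjusted p = 0.000326). Plxnd1, the receptor of Sema3e, ranged from 4.37 to 8.29 CPM and was higher with Dox by 0.40 (SE 0.12, edgeR adjusted p = 0.00895), a call that ended with DESeq2 and with any 1 of the 0 h and 19 h libraries left out (0.28 to 0.38). Plxnb1, the receptor of Sema4d, ranged from 0.465 to 1.61 CPM and was higher with Dox by 0.79 (SE 0.21, edgeR adjusted p = 0.00285). That call ended without either 30 h library, at 0.65.

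Among the secreted class 3 semaphorins, Sema3a was the most abundant. Sema3a (ENSMUSG00000028883), the ligand that collapses growth cones through Nrp1, stood at 9.73, 10.3 and 7.04 CPM in Experiment 1, at 37.2, 26.3 and 25.5 CPM in Experiment 2 without Dox and at 31.6, 26.7 and 23.0 CPM with Dox. All libraries of Experiment 2 were above those of Experiment 1, and both arms of Experiment 2 were highest at 0 h. Scaled by library size alone, the arm with Dox was highest at 19 h, at 31.7 CPM against 28.4 CPM at 0 h. The experiments differed by 1.72 (SE 0.19, edgeR adjusted p = 2.83e-06). With Dox the change was -0.12 (SE 0.11, edgeR adjusted p = 0.397).

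Sema3f (ENSMUSG00000034684), a ligand of Nrp2, stood at 8.79, 6.09 and 4.99 CPM in Experiment 1, at 10.0, 10.8 and 18.5 CPM in Experiment 2 without Dox and at 13.8, 16.7 and 20.9 CPM with Dox. The SAG libraries were below 0 h in Experiment 1 and above 0 h in Experiment 2. It was higher with Dox by 0.42 (SE 0.12, edgeR adjusted p = 0.00388) and in Experiment 2 by 0.96 (SE 0.25, edgeR adjusted p = 0.00617). The Dox call ended without either 0 h library, at 0.40. The experiment call ended without either 30 h library, at 0.50 and 0.53, and with scaling by library size alone, at 0.50. Sema3b, a secreted ligand known as a candidate tumour suppressor, ranged from 1.77 to 5.03 CPM and was higher with Dox by 0.58 (SE 0.14, edgeR adjusted p = 0.00113).

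Sema3c, a ligand in cardiac neural crest, had most of its UMIs in Experiment 1. The 0, 17 and 30 h libraries of Experiment 1 held 28, 13 and 16 UMIs. In Experiment 2 those without Dox held 3, 7 and 8 UMIs and each of those with Dox held 2, although the libraries of Experiment 2 were deeper. Its level was lower in Experiment 2 by 3.20 on the log2 scale (SE 0.52, edgeR adjusted p = 0.000132). Plxna4, a class A plexin whose exons overlap Plxna4os3 on the other strand, had a like pattern, with 20, 12 and 9 UMIs at the 3 times of Experiment 1. Its libraries of Experiment 2 held 2, 6 and 7 UMIs without Dox, against 0, 3 and 2 with Dox. Its level differed between the experiments by -3.002 on the log2 scale (SE 0.58, edgeR adjusted p = 0.000571). All libraries of Experiment 1 were above all of Experiment 2 for both genes, at levels under 1 CPM.

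Of the membrane-bound semaphorins, Sema5a was the most abundant. Sema5a (ENSMUSG00000022231), a transmembrane ligand with thrombospondin repeats, stood at 26.9, 20.7 and 20.7 CPM in Experiment 1, at 17.2, 11.3 and 12.2 CPM in Experiment 2 without Dox and at 36.9, 27.8 and 24.0 CPM with Dox. It was highest at 0 h in each arm, and its libraries with Dox did not overlap those without in Experiment 2. With Dox it was higher by 1.12 (SE 0.11, edgeR adjusted p = 6.93e-11). In Experiment 2 without Dox it was lower than in Experiment 1, at -0.75 (SE 0.18, edgeR adjusted p = 0.00274), a call that ended without the 17 h or the 19 h library (-0.70 and -0.68).

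Sema7a, the semaphorin anchored by a lipid, stood at 4.20, 2.84 and 2.55 CPM in Experiment 1, at 1.26, 0.796 and 0.634 CPM in Experiment 2 without Dox and at 0.215, 0.204 and 0.493 CPM with Dox. The 3 arms did not overlap. It was lower with Dox, at -1.41 (SE 0.29, edgeR adjusted p = 0.00015), and without either 30 h library the value was -2.19. In Experiment 2 it was lower than in Experiment 1, at -1.85 (SE 0.27, edgeR adjusted p = 4.72e-05).

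The class 4 and class 6 semaphorins between 1 and 10 CPM, transmembrane ligands of plexins of classes B and A, gave 3 members with a Dox call. Sema4c, whose exons overlap D430040D24Rik on the other strand, ranged from 3.78 to 7.87 CPM and was higher with Dox by 0.73 (SE 0.12, edgeR adjusted p = 1.12e-05). Sema6c ranged from 1.27 to 3.04 CPM and was higher with Dox by 0.65 (SE 0.16, edgeR adjusted p = 0.00134). Sema4b ranged from 3.42 to 5.69 CPM and was lower with Dox, at -0.49 (SE 0.13, edgeR adjusted p = 0.00391). That call ended without either 0 h library, at -0.38, and with scaling by library size alone, at -0.10. Sema4c and Sema6c were also lower in Experiment 2 than in Experiment 1, at -0.54 (SE 0.21, edgeR adjusted p = 0.0451) and -0.76 (SE 0.27, edgeR adjusted p = 0.0323). The Sema4c call ended with any 1 of the 6 libraries left out (-0.68 to -0.44), with DESeq2 or its size factors (both -0.51) and with no filter on low counts (-0.53). That of Sema6c ended with any 1 of the 0, 17 and 19 h libraries left out (-0.81 to -0.52) and with DESeq2 (-0.74). Sema4g ranged from 3.50 to 7.02 CPM and was called in no comparison.

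The other members were scarce. Sema6a and Sema6b, transmembrane ligands of class A plexins, ranged from 0.0930 to 0.484 CPM and from 0.246 to 0.594 CPM and were called in no comparison. Sema4a and Sema4d, which are known for roles in immune cells, had 39 and 34 UMIs over the 9 libraries. Sema3d and Sema3g, both secreted, had 19 UMIs each. The plexins Plxnb3 and Plxnc1, the latter a receptor of Sema7a, had 13 and 11 UMIs, all of them in Experiment 2. The libraries of Experiment 1 were shallower. Their counts of 0 allow up to 0.103 to 0.155 CPM by library size alone, above every level of these 2 genes in Experiment 2. Sema3e, the ligand of Plxnd1, and Sema4f had 2 UMIs each, and Sema5b and Sema6d had 1 UMI each.

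With SAG, no member passed in the comparisons over both experiments. At 17 to 19 h without Dox 0 of 22 members were called, where 0.111% of all genes were called (edgeR, n = 2 libraries per time), with 1 higher and 1 lower at an unadjusted p under 0.05. DESeq2 called 0. At 30 h 0 of 22 were called, where 0.446% of all genes were called, with 1 higher and 2 lower at an unadjusted p under 0.05. By DESeq2 there were 0. Of the 14354 genes tested, 383 had an unadjusted p under 0.05 at 17 to 19 h and 1483 at 30 h. With both times and all 3 arms in the same fit, 0 of 21 were called, where 0.715% of all genes were called. There 5 were higher and 3 lower at an unadjusted p under 0.05, and DESeq2 called 2, Plxna2 and Sema5a. Of the 13837 genes tested there, 3572 had an unadjusted p under 0.05 by edgeR, and DESeq2 called 1214. Among members, the smallest edgeR p in that fit was that of Sema5a, at -0.49 (SE 0.09, edgeR adjusted p = 0.0509), lower in 6 of 6 SAG libraries than at 0 h of the arm. Plxna2 stood at 1.02 (SE 0.23, edgeR adjusted p = 0.0656), higher in 6 of 6. Without the Experiment 1 library at 0 h, 8 members were called in that fit, 6 higher and 2 lower, where 3964 of 13832 genes were called. Experiment 1 then had no 0 h library, so the SAG term rested on Experiment 2 alone. Without any other library 0 members were called. By time, Plxna2 stood at 0.84 (SE 0.28, edgeR adjusted p = 0.901) at 17 to 19 h and at 1.03 (SE 0.28, edgeR adjusted p = 0.0999) at 30 h. In simulated data these tests called 48% of log2 changes of 1 at 17 to 19 h, 37% at 30 h and 78% over all arms. A member that was not called is thus not shown to be unchanged.

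Within Experiment 2 alone, a fit added after the data were seen, 5 of 19 members were called with SAG, 3 higher and 2 lower, where 22.6% of all genes were called (edgeR, 4 SAG libraries against 2 at 0 h, with Dox as a term). Plxna2 was higher by 1.26 (SE 0.22, edgeR adjusted p = 0.0109), Plxnb2 by 0.82 (SE 0.19, edgeR adjusted p = 0.0249) and Nrp2 by 0.65 (SE 0.12, edgeR adjusted p = 0.0139), each in 4 of 4 SAG libraries. Sema5a was lower, at -0.54 (SE 0.12, edgeR adjusted p = 0.0195), and so was Sema3a, at -0.45 (SE 0.12, edgeR adjusted p = 0.0322), each in 4 of 4. Nrp1 stood at 0.53 (SE 0.18, edgeR adjusted p = 0.057). Without either 0 h library, which leaves a lone library at 0 h, no call held. Without the 19 h library without Dox 15 members were called, where 7197 of 13533 genes were called. Without the 30 h library with Dox 2 were called, Plxna2 and Nrp2, where 791 of 13531 genes were called. Sema3a was also not called without the 19 h library with Dox, at -0.51. Scaled by library size alone, the median of all genes was 0.41 and 12 members were called, all higher, with Sema5a at -0.14 and Sema3a at -0.05. Over all genes 5301 were then called higher and 609 lower. With that scaling neither Sema5a nor Sema3a was lower in 4 of 4 SAG libraries. The cells with under 1% mitochondrial UMIs, which are more common in 3 of the 4 SAG libraries, were left out in a further fit, which again called 3 members higher and 2 lower. There 2991 of 13503 genes were called.

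Within Experiment 1 alone, also added after the data were seen and with 3 libraries, 0 of 20 members were called, where 1.72% of all genes were called (edgeR, 2 SAG libraries against 1), with 1 higher and 3 lower at an unadjusted p under 0.05. Plxna2 stood at 0.55 (SE 0.21, edgeR adjusted p = 0.199) and Sema3f at -0.64 (SE 0.22, edgeR adjusted p = 0.135). The difference of the SAG response between the experiments was called for 0 of 22 members by edgeR and by DESeq2, where 0.397% of all genes were called by edgeR, with 5 higher in Experiment 2 at an unadjusted p under 0.05. Of the 14354 genes tested, 3024 had an unadjusted p under 0.05. Nrp2 stood at 0.71 (SE 0.21, edgeR adjusted p = 0.117). The calls within Experiment 2 are therefore not shown to differ from Experiment 1. Without the 19 h library without Dox the difference was called for 7 members, where 3517 of 13925 genes were called. Scaled by library size alone it was called for 4, where 1097 of 14354 genes were called.

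**Figure D4:**
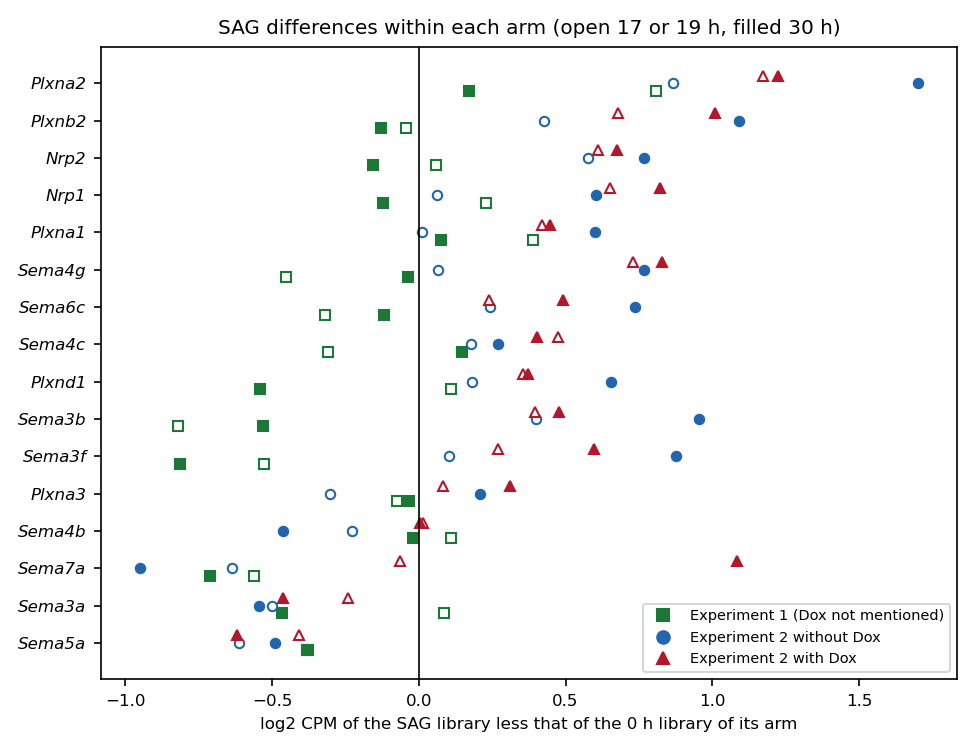
Difference in log2 CPM between a SAG library and the 0 h library of its arm (x axis) for the 16 members of at least 1 CPM (y axis), with open symbols for 17 or 19 h and filled symbols for 30 h. Each symbol is 1 library, without an error. Plxna2 lies to the right of 0 in all 6 SAG libraries and Sema5a to the left in all 6. Values use TMM factors, and scaled by library size alone Sema5a is not lower at 30 h in Experiment 2 without Dox.

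The SAG response at 30 h differed with Dox for 0 of 22 members, where 0% of all genes were called (edgeR), with 1 member at an unadjusted p under 0.05. DESeq2 also called 0. That member was Sema7a, at 2.04 (SE 0.76, edgeR adjusted p = 1), whose level at 30 h was below that at 0 h without Dox and above it with Dox. The conditions with Dox had 1 library each, and their spread was taken from the others. In simulated data this test called 1% of log2 changes of 1 and 49% of changes of 2. The 0 calls therefore do not show that the responses were alike.

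Of 73 partner genes on 6 lists, 58 to 64 were tested. With Dox 19 were called higher and 10 lower of 63 (46.0%, where 38.4% of all genes were called). Higher were 4 of 10 co-receptors and alternative receptors, among them Pdgfrb at 0.99 (SE 0.12, edgeR adjusted p = 3.8e-09) and Pdgfra at 0.81 (SE 0.13, edgeR adjusted p = 1.99e-06), the receptors for platelet-derived growth factor. Of 21 small GTPases and their regulators 4 were higher and 7 lower, with Rnd1, a GTPase that binds plexins, at -1.64 (SE 0.16, edgeR adjusted p = 2.54e-11) and Tiam1, an exchange factor for Rac, at 0.86 (SE 0.12, edgeR adjusted p = 4.5e-07). Of 8 neuropilin ligands outside the semaphorins 4 were higher and 2 lower, and of 12 cytoskeletal effectors 4 were higher and 1 lower, with Mical2, an actin-oxidising enzyme of the MICAL family, at 1.27 (SE 0.15, edgeR adjusted p = 2.59e-09). Of 8 kinases 1 was higher, and of 4 proteases 2 were, with Mmp14, a membrane-bound metalloprotease, at 0.92 (SE 0.13, edgeR adjusted p = 6.22e-07).

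Between the experiments 13 partner genes were higher in Experiment 2 and 9 lower, of 61 (36.1%, where 40.5% of all genes were called). Rnd3, a small GTPase that binds plexins, was higher by 2.30 (SE 0.26, edgeR adjusted p = 2.64e-06), and Hgf, a growth factor that binds neuropilins, was lower, at -1.80 (SE 0.18, edgeR adjusted p = 1.04e-06). Vegfd was higher by 1.23 (SE 0.21, edgeR adjusted p = 0.00024) and the sheddase gene Adam10 by 0.68 (SE 0.18, edgeR adjusted p = 0.00586). Pdgfra and Mmp14 were lower, at -1.12 and -1.11 (edgeR adjusted p = 0.000394 and 0.00261). With SAG 0 partner genes were called over both experiments by edgeR, at 17 to 19 h, at 30 h and with all arms. Rnd3 came nearest, at -1.18 (SE 0.28, edgeR adjusted p = 0.0545) at 30 h and -1.11 (SE 0.25, edgeR adjusted p = 0.0687) with all arms, and at 17 to 19 h it was Rras2, an R-Ras GTPase, at 0.67 (SE 0.26, edgeR adjusted p = 1). Within Experiment 2 alone 13 were higher and 4 lower of 63 (27.0%, where 22.6% of all genes were called). Rnd3 went from 45.9 CPM at 0 h to 21.6 and 12.7 CPM without Dox and from 57.0 to 24.0 and 17.3 CPM with Dox, a change of -1.45 (SE 0.21, edgeR adjusted p = 0.00658), while in Experiment 1 it was at 5.03, 5.25 and 4.14 CPM. Also called there were Arhgef11, an exchange factor that binds plexins of class B (-0.82), Rras2 (0.91), Rnd2 (0.67), Mical1 (1.13) and Mical2 (1.41), with edgeR adjusted p of 0.00913 to 0.0201. Within Experiment 1 alone 2 of 58 passed, Ptk7, a receptor pseudokinase, at -0.73, and Hgf, at -0.58 (edgeR adjusted p = 0.0208 and 0.0473), but the 0 h side is a lone library assumed to vary like the SAG libraries, of 2 different times. No partner gene differed in its SAG response between the experiments, with Rnd2 at 0.91 (edgeR adjusted p = 0.0775), or in its response at 30 h with Dox, with Pgf, a neuropilin ligand, at 1.49 (edgeR adjusted p = 1).

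At a fixed depth, the shares of cells with a UMI of a neuropilin differed between the arms as the levels did. Counts of kept cells were drawn down to 10000 UMIs per cell, leaving out shallower cells, which left 543 to 2658 cells per library. At 19 h without Dox in Experiment 2 this left 2610 of 6520 kept cells, against 2658 of 2979 at 0 h of that arm. The shares of that 19 h library are therefore of its deeper cells only. Nrp1 was then found in 9.84% to 10.7% of cells in Experiment 1 and in 20.3% to 36.3% of cells in Experiment 2. Nrp2 was found in 20.9% to 23.3% of cells in Experiment 1, in 2.11% to 5.23% in Experiment 2 without Dox and in 15.6% to 28.8% with Dox. For Nrp2 the arm without Dox in Experiment 2 did not overlap the others. Plxnb2 was found in 16.0% to 57.8% of cells and Plxna2 in 9.48% to 38.3%, each highest in a SAG library of Experiment 2. At 19 h without Dox in Experiment 2, however, Plxnb2 was found in 24.1% of cells, below the 31.7% to 34.8% of Experiment 1. Without drawing down, at the unequal depths of the libraries, Nrp1 was found in 26.7% to 29.2% of kept cells in Experiment 1 and in 29.2% to 72.4% in Experiment 2. Undrawn shares of Nrp2 were 43.7% to 51.3% in Experiment 1, 5.74% to 16.1% in Experiment 2 without Dox and 33.4% to 62.7% with it. Those of Plxnb2 were 30.6% to 93.7% and those of Plxna2 25.1% to 76.4%. Cells with UMIs of a neuropilin and of a class A plexin made up 7.51% to 8.66% in Experiment 1. In the arms of Experiment 2 they made up 5.64%, 8.51% and 21.3% without Dox, against 11.3%, 29.8% and 30.3% with it. No second cell type that lacks these genes was present to measure free RNA, so a share of cells with a UMI is not a share of cells that express the gene.

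**Figure D5:**
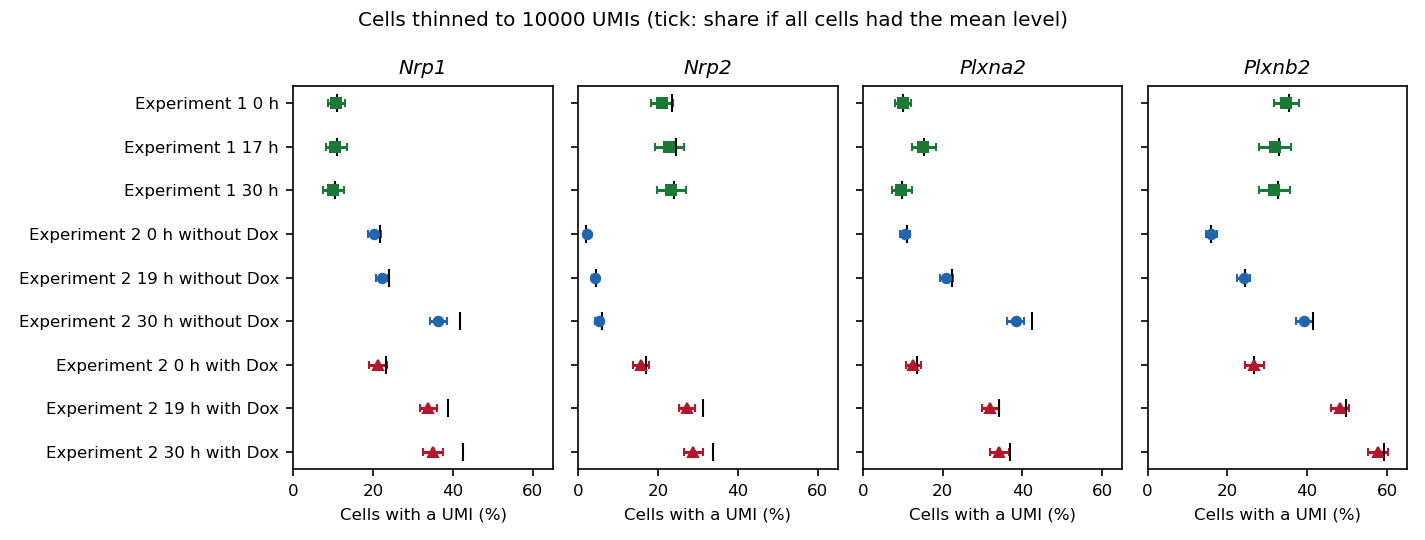
Share of cells with at least 1 UMI of Nrp1, Nrp2, Plxna2 or Plxnb2 (x axis, percent) in the 9 libraries (y axis), in cells thinned to 10000 UMIs. Points are shares with exact binomial 95% intervals that cover counting error only, and black ticks show the share if all cells had the mean level. Nrp2 is at 2.11% to 5.23% in Experiment 2 without Dox and at 15.6% to 28.8% with Dox.

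Of the 72 shares of the 8 members of at least 10 CPM in 9 libraries, 14, all in Experiment 2, lay with their whole interval below the share that equal levels in all cells would give. Libraries of Experiment 1 held fewer thinned cells (543 to 917, against 1324 to 2658), which widens their intervals, so this count does not compare the experiments. The variance of UMIs per cell over their mean was 0.947 to 1.55, with a median of 1.11. In Experiment 1 at 0 h it was 1.28 for Nrp2 and 1.23 for Sema5a. The largest gap was for Nrp1 at 30 h with Dox, found in 34.9% of cells where equal levels would give 42.5%. Over the 28 pairs of these 8 members, the share of cells with UMIs of both genes, divided by the product of their separate shares, had medians over the 9 libraries of 0.957 to 1.21. Cells with and without a Gli1 UMI were compared by their mean UMIs per cell in the 6 SAG libraries. In the 4 libraries of Experiment 2, with 190 to 428 Gli1-positive cells each, the means of Nrp1, Nrp2, Plxnb2, Sema3a and Sema3f were higher in Gli1-positive cells in 4 of 4, those of Plxna1 and Plxna2 in 2 of 4 and that of Sema5a in 1 of 4. Experiment 1 had 21 and 45 Gli1-positive cells, and there the mean of Sema5a was higher in 2 of 2 libraries and that of each of the other 7 in 1 of 2. In Experiment 2 gaps could be small, as for Plxnb2 at 19 h without Dox (0.289 UMIs per cell in Gli1-positive cells against 0.280). Others were larger, as for Nrp1 at 30 h with Dox (0.712 against 0.493). The Gli1 split was not made for all genes, so it is not shown to be particular to the members. At these sparse counts the pairs and the Gli1 split are descriptions.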

How the data were processed

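The authors deposited raw UMI counts for each barcode and gene. They were made with Cell Ranger on mm10, per the submitters' processing notes. Per the file headers, the software version was 3.1.0 for Experiment 1 and 6.0.1 for Experiment 2. The filter behind the barcodes, the annotation and the use of strand are not given in the sources used here, so members whose exons overlap another gene on the other strand (Plxna1, Plxna4, Plxnb1, Sema4c) are less certain. The same holds for members with an overlap on the same strand, Nrp1 (Mir1903), Plxnc1 (Gm48718) and Sema4a (Mir7011). Whether those other genes were in the annotation used for counting is not known.

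Genes were joined by identifier. A cell was kept if it had 5000 UMIs or more and a mitochondrial share of up to 10%, and no doublet caller was run. Counts were summed per library and tested with edgeR 4.0.16 in R 4.3.3 (filterByExpr, TMM factors, quasi-likelihood F test, Benjamini-Hochberg adjustment over all genes, threshold 0.05), and DESeq2 1.42.0 was the other tool. The SAG comparisons by time and the Dox difference used all 9 libraries, with terms for condition and experiment (2 residual degrees of freedom), the fit of both times used arm and SAG (5), and the Dox and experiment comparisons used 6 libraries with SAG time as a term (2). Each standard error is the log2 change over the root of its F value. The tests were tested on simulated data with 200 changed genes, and the shares called for SAG are given with its results. For Dox and for the experiment 86% and 71% of log2 changes of 1 were called. Differences between single libraries are of log2 CPM (prior count 2). Cells were thinned at random with numpy 2.4.6, and intervals came from scipy 1.17.1.

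In the labels the replicate number is the experiment. The Experiment 2 less Experiment 1 differences without Dox correlated between times at 0.833, 0.682 and 0.811 over 10213 genes, and the experiment was a block. Every member is named. Those of at least 10 CPM have their level in every library, and those called have their change. Partner genes are named if called, at most 6 per comparison by p, or else the 1 of smallest p. The members, lists and tests were chosen with earlier results of these data known, and the fits within an experiment, their difference and the scaling by library size were added after seeing the data. Gene positions are of GENCODE vM21 on GRCm38, and 1-based.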

Additional observations from a re-analysis of the deposited data

Results flagged for a closer look

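For 5 of the 16 members of at least 1 CPM, both SAG libraries of Experiment 1 lay below their 0 h library and all 4 SAG libraries of Experiment 2 lay above theirs. How many of all genes show this pattern was not counted, so it is not shown to be particular to the members. Both differences of Experiment 1 share the same 0 h library, and the members were picked by this pattern in the libraries then tested. The difference of the SAG response, Experiment 2 less Experiment 1, was tested for each (edgeR, all 9 libraries) and passed for none of them. It was 1.25 for Sema3b (SE 0.35, adjusted p = 0.102), 1.16 for Sema3f (SE 0.36, adjusted p = 0.128), 0.91 for Plxnb2 (SE 0.30, adjusted p = 0.144), 0.84 for Sema4g (SE 0.35, adjusted p = 0.209) and 0.66 for Sema6c (SE 0.35, adjusted p = 0.288). The single differences of Sema3f were -0.81 to -0.53 in Experiment 1 and 0.10 to 0.88 in Experiment 2, and those of Plxnb2 were -0.13 to -0.04 and 0.43 to 1.09.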

How the results depend on the processing

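Among the members, no called change turned its direction under any alternative. Scaled by library size alone, the uncalled Dox differences of Nrp1, Plxna2 and Sema3a went from -0.08, -0.07 and -0.12 to 0.31, 0.33 and 0.27 (log2), uncalled there too. Of 481 results and alternatives compared for single members, 419 kept their side of the threshold, 48 lost it and 14 gained it. Member calls for Dox and for the experiment stayed within 1.5 times of 12 under every alternative (9 to 11 with a library left out). For SAG at 17 to 19 h they were 0 to 1 with a library left out, the 1 being Plxna2 without Experiment 1 at 0 h. At 30 h they were 0 to 2 with a library left out, 1 with no filter on low counts and 1 with up to 20% mitochondrial UMIs. Over all arms they were 0 to 8 with a library left out, where the 8 rested on Experiment 2 alone. They were 1 with DESeq2 size factors, 2 with DESeq2, 5 with no filter, 1 with at least 10000 UMIs and 1 with up to 20% mitochondrial UMIs. Within Experiment 2 they were 0 to 15 with a library left out, 12 scaled by library size alone and 11 with no filter. For the difference between the experiments they were 0 to 7 with a library left out, 4 scaled by library size alone and 6 with no filter. Without the replicate block edgeR called 0 members at either SAG time, over all arms and for the Dox difference. All-gene calls moved more than 1.5 times: 16 at 17 to 19 h became 7 with DESeq2 and 243 without Experiment 1 at 0 h, 64 at 30 h became 12 and 1276, 99 over all arms became 1214 and 3964 and 0 without Experiment 2 at 0 h without Dox, 3089 within Experiment 2 became 6 and 7197, and 57 for the difference became 671 with DESeq2 and 3517. Thinning to 5000 UMIs moved 53 of 54 shares of cells beyond their interval, since a shallower cell shows fewer genes.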
